A study of Equus caballus with 68 samples.

Results

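The respiratory chain subunits encoded in the nucleus were followed in horse bone marrow mononuclear cells (BMNC) before culture and during 10 days in joint fluid. Members were chosen by symbol: the NDUFA, NDUFB, NDUFC, NDUFS and NDUFV families of complex I, SDHA to SDHD of complex II, the UQCR genes and CYC1 of complex III, the COX4 to COX8 families of complex IV and the ATP5 genes of complex V. The symbols matched 71 of 30371 rows, and 67 passed the filter on low values, which asked for at least 0.5 GeTMM in at least 7 libraries and left 14570 genes of the series. GeTMM is a normalised read count per gene length, so a comparison of levels between genes rests on the length used for each gene. The 67 were 30 genes of complex I, 3 of complex II, 7 of complex III, 13 of complex IV and 14 of complex V, with NDUFA4 and its paralog NDUFA4L2 counted in complex IV, where the NDUFA4 protein sits. Most of the rest held almost no reads. COX6A2 reached 0.5 GeTMM in 6 libraries with a highest value of 1.63, COX6B2 reached it in 2 and COX4I2 in 0. NDUFA2 was listed at 0 in every library and was also left out. Just inside the filter lay NDUFA4L2 with 31 libraries, and each of the other 66 passed in all 68. SDHD, COX7C, UQCRH and COX8C were not analysed here.

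The oxidative phosphorylation chain sits in the inner mitochondrial membrane. Complexes I and II take electrons from NADH and succinate, complex III passes them to cytochrome c, complex IV hands them to oxygen, and complex V (ATP synthase) uses the resulting proton gradient to make ATP. Most subunits are nuclear-encoded and imported, whereas the mitochondrial genome encodes a small set of membrane-embedded core subunits of every complex but II, so building the chain needs both genomes. Macrophages are known for shifting between respiration and glycolysis as their activation state changes.

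The cells came from 8 Thoroughbred horses aged 3 to 9 years, geldings and mares, healthy at collection. BMNC were taken uncultured (0 h, n = 8) or after culture of each horse's cells in its own undiluted, cell-free synovial fluid, either normal fluid (SF) or fluid taken from joints inflamed with lipopolysaccharide (ISF). Libraries were available for each fluid at 48 h (n = 7), 96 h (n = 8), 6 d (n = 8) and 10 d (n = 7), 68 in all, each from 1 well of 1 horse, with no library of the horse Moon at 48 h or of Flash at 10 d. ISF is an acute model that stands in for natural joint disease, and the cultures were bulk mixtures whose makeup changed.

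Depth on genes per library was 15653444 to 35971676 reads, with a median of 22253416. Apart from NDUFA4L2 and COX7A1, which fell to 0 and 8 reads in their lowest libraries, each member had at least 157 reads in every library, so counting error was small beside the spread between horses. The SF library of Moon at 6 d stood apart: its members lay a median of 2.25 log2 units above the other SF libraries of that time, against −0.26 over all genes tested. Counts of members that rest on it are given with and without it, and some other values at 6 d with all libraries only. By the levels of 200 genes that vary between horses, 66 of 68 libraries correlated best with the other libraries of their own horse, and the ones labelled Dealings and Dreamer in ISF at 96 h each correlated best with the other of those horses. Macrophage markers were summed at 184 to 307 GeTMM at 0 h and at 7548 or more in every cultured library, while neutrophil-precursor markers went from 11356 to 20997 at 0 h to at most 1648 in SF and 63.7 in ISF at 10 d. In such bulk libraries a change in the share of a cell type and a change in RNA per cell cannot be told apart.

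By GeTMM the subunit genes were among the higher ones, with a median of the mean levels of 157 against 11.99 over all genes tested. Complex I ran from NDUFA8 at 16.6 to NDUFA1 at 324 GeTMM, and complex II from the flavoprotein SDHA at 96.2 to the membrane anchor SDHC at 393. In complex III, the core protein UQCRC2 was lowest at 72.3 and the small subunit UQCR10 highest at 551. Complex IV had the widest range as a ratio, from NDUFA4L2 at 17.1 to COX6C at 905, and complex V ran from the inhibitor ATP5IF1 at 97.1 to the epsilon subunit ATP5F1E at 1571. The lengths recovered from the values, on which GeTMM rests, were short for these genes. Their median was 564 bases against 1576 over all genes tested. Of the 67, 49 were 906 bases or shorter, as were 3644 of the genes tested. The span of each gene in the genome was not read. ATP5F1E, at 156 bases, had a median of 4162 reads, and ATP5F1A, at 1797 bases, had 12920. The order of levels by GeTMM is thus not the order by reads.

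Together the members made up a median of 1.03% of all GeTMM at 0 h. In SF the medians were 1.28%, 1.61%, 1.64% and 1.75% at the 4 times, and in ISF 1.49%, 1.59%, 1.77% and 1.99%. On the scale used for testing, log2(GeTMM + 1), the mean over the members was 6.67 ± 0.20 at 0 h (SD, n = 8). It was 6.87 ± 0.19, 7.15 ± 0.10, 7.46 ± 0.75 and 7.25 ± 0.28 in SF, with 7.21 ± 0.26 at 6 d once the library of Moon was left out. In ISF it was 7.03 ± 0.06, 7.25 ± 0.17, 7.46 ± 0.22 and 7.68 ± 0.29. ISF at 10 d thus held the highest group mean, and uncultured cells the lowest. Horse by horse, 66 of 67 members averaged above 0 h in ISF at 10 d, and 56 of them did so in every horse with a library. The corresponding counts in SF at 10 d were 60 and 37. The exception in ISF was NDUFB9, an accessory complex I subunit, which lay above its 0 h level in 1 of 7 horses. No share of all genes stands beside these counts over horses, or beside those between fluids below. They therefore do not single out the members.

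**Figure D1:**
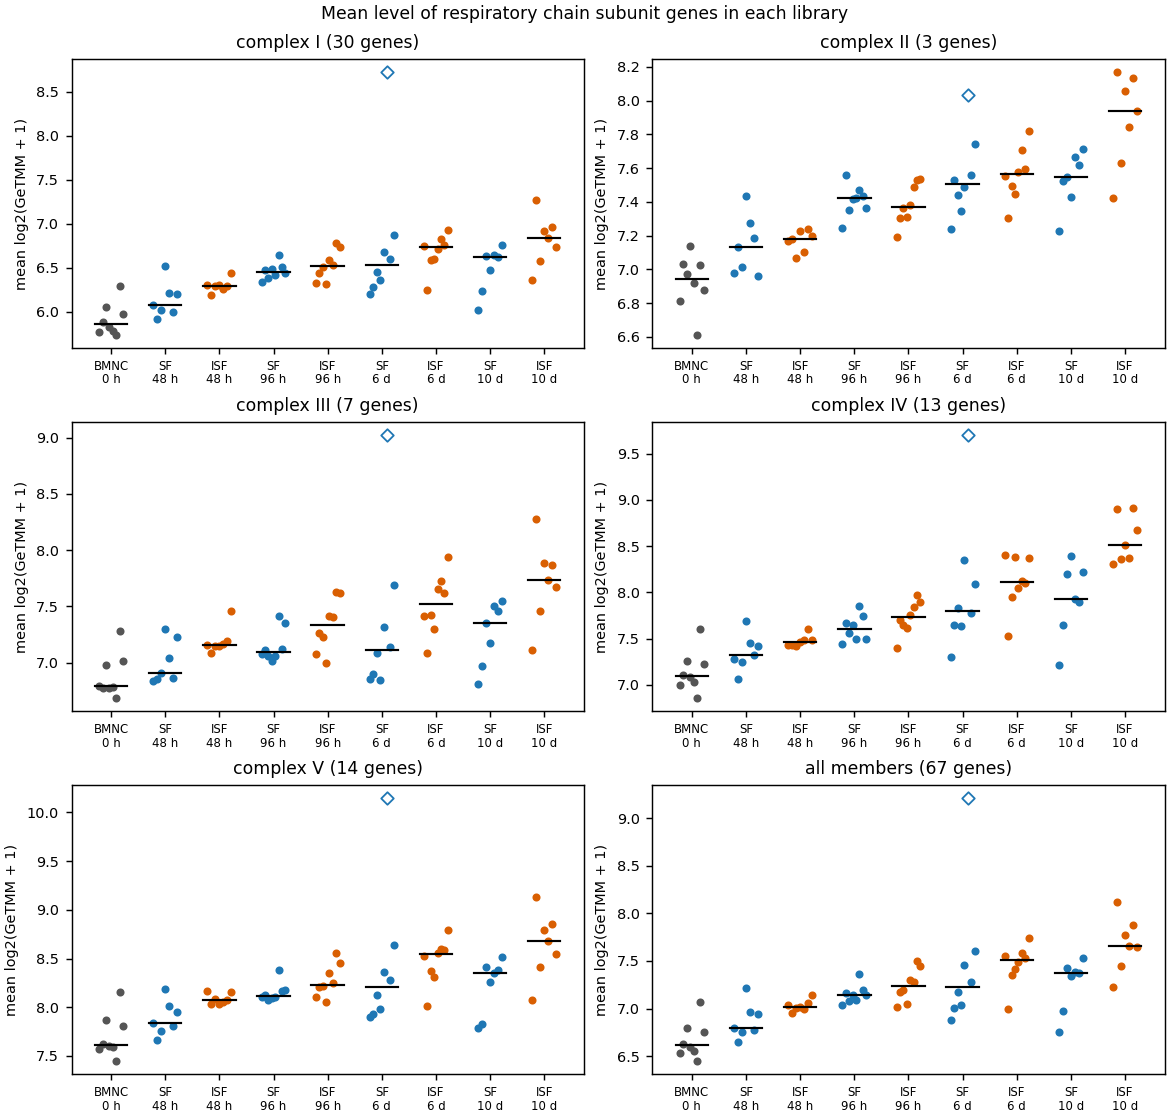
Mean log2(GeTMM + 1) over the members of each complex (y axis) in every library, by time in culture (x axis), with uncultured BMNC in grey, SF in blue and ISF in orange. Points are libraries, black bars are group medians, and the open diamond is the SF library of Moon at 6 d. In complex IV the 10 d ISF libraries sit between 8.31 and 8.92, and the 10 d SF libraries between 7.22 and 8.39. That mean includes NDUFA4L2, at 0 GeTMM in the 10 d SF libraries of Catnip, Moon and Ollie and at 307 in ISF of Catnip. Lurie went the other way, with 238 in SF and 1.63 in ISF. How far this gene sets the ranges was not tested.

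The first comparison asked how the chain changed when uncultured cells entered fluid. From 0 h to 48 h, 25 members rose in ISF and 0 fell, and 11 rose in SF and 0 fell (limma on log2(GeTMM + 1), Benjamini-Hochberg FDR under 0.05 over 14570 genes). Both fits share the 8 uncultured libraries, so they are not independent. Over all genes tested, 25.3% rose and 27.4% fell in ISF, and 22.3% rose and 23.1% fell in SF. The members' share of rises in ISF was above that background and their share of falls below it, whereas in SF their share of rises was below the background. The median log2 difference of the members was 0.38 in ISF and 0.14 in SF, against −0.03 and −0.01 over all genes. A fit with horse as a block gave 34 higher in ISF and 20 higher in SF, with all-gene shares of 26.8% and 24.1%. Without the SF library of Moon at 6 d, which enters only the estimate of spread here, they were 34 higher in ISF, against 28.5% of all genes, and 22 higher and 2 lower in SF, against 26.4% and 26.1%. In SF the count was 5 without the horse Flash, 6 without Lurie and 19 without Moon (17 higher, 2 lower). When libraries were weighted by how closely they followed the fit, 39 rose in ISF, against 30.3%, and 25 rose and 3 fell in SF, against 27.6% and 27.0%, so the SF share of rises then lay above the background, as it did with horse as a block and without the library of Moon.

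Among the core subunits of complex I, the largest rises were in NDUFS8 and NDUFV2, both carriers of iron-sulfur clusters. NDUFS8 ranged from 90.2 to 121 with a median of 103 GeTMM at 0 h. After 48 h it lay at 168 to 286 with a median of 202 in SF and at 173 to 321 with a median of 218 in ISF. Every cultured library was above every uncultured one, and the log2 differences were 1.01 ± 0.20, FDR = 3.28e-05 in SF and 1.13 ± 0.20, FDR = 3.55e-06 in ISF. NDUFV2 went from 55.9 to 95.9 with a median of 64.9 GeTMM at 0 h to 103 to 165 in SF and 111 to 174 in ISF, again with no overlap (0.91 ± 0.16, FDR = 2.93e-06 and 1.02 ± 0.16, FDR = 2.24e-07). NDUFS1, the largest iron-sulfur subunit, rose less, by 0.30 ± 0.11 in SF (FDR = 0.0203) and 0.40 ± 0.11 in ISF (FDR = 0.00156), and its ranges overlapped those at 0 h. Other core subunits did not pass: NDUFS3 had a log2 difference of 0.15 in SF and 0.29 in ISF, NDUFS7 -0.18 and -0.06, and NDUFV1, which binds NADH, 0.11 and 0.36. In all, 13 of 30 complex I genes rose in ISF and 5 in SF.

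Complex II moved through 1 subunit. SDHC, one of the membrane anchors, ranged from 136 to 249 with a median of 198 GeTMM at 0 h and from 283 to 457 in SF and 282 to 345 in ISF at 48 h. No cultured library was as low as the highest uncultured one, and the log2 differences were 0.72 ± 0.10, FDR = 6.65e-09 in SF and 0.67 ± 0.10, FDR = 2.95e-08 in ISF, the smallest FDR of any member in both fluids. The catalytic subunits did not pass, with SDHA at 0.02 in SF and 0.09 in ISF and SDHB, the iron-sulfur subunit, at -0.09 and -0.03. SDHC also rose from 48 h to 96 h, by 0.45 ± 0.10, FDR = 0.000272 in SF and 0.32 ± 0.10, FDR = 0.0152 in ISF, the second of which was lost without Dreamer or Ollie.

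In complex III, the Rieske protein UQCRFS1 rose from 49.5 to 73.97 with a median of 59.3 GeTMM to 70.2 to 115 with a median of 79.9 in SF and 89.4 to 139 with a median of 97.9 in ISF. The ISF libraries lay above all uncultured ones, while the lowest SF libraries overlapped them (0.51 ± 0.16, FDR = 0.00816 in SF, 0.74 ± 0.16, FDR = 9.36e-05 in ISF). The core proteins UQCRC2 (0.42 ± 0.14, FDR = 0.00896) and UQCRC1 (0.39 ± 0.17, FDR = 0.045) rose in ISF, and the small subunit UQCR10 did too (0.67 ± 0.23, FDR = 0.0115). UQCRC1 was lost on leaving out any 1 of 7 of the horses. Cytochrome c1 (CYC1) had log2 differences of 0.02 ± 0.19 in ISF and -0.24 ± 0.19 in SF and passed in neither.

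Of complex IV, COX5A and COX5B, subunits on the matrix side, rose in ISF (0.75 ± 0.22, FDR = 0.00276 and 0.62 ± 0.21, FDR = 0.0116). COX5A went from 129 to 203 with a median of 169 GeTMM at 0 h to 252 to 322 with a median of 277 in ISF with no overlap. In SF its range was 208 to 331, just above the uncultured libraries (0.51 ± 0.22, FDR = 0.0498). COX4I1 (0.03 ± 0.17 in ISF) and COX6C (0.08 ± 0.22) did not pass. In complex V, ATP5MC1, 1 of 3 genes for the same mature c subunit of the rotor ring, rose from 61.3 to 79.7 with a median of 69.9 to 90.98 to 137 in SF (0.65 ± 0.24, FDR = 0.0241) and 117 to 161 in ISF (1.06 ± 0.24, FDR = 0.000175). Both ranges cleared that of the uncultured cells. The other c-subunit genes, ATP5MC2 and ATP5MC3, did not pass in ISF (-0.02 ± 0.13 and 0.27 ± 0.19). ATP5PB of the peripheral stalk rose in both fluids (0.35 ± 0.11, FDR = 0.00712 in SF, 0.50 ± 0.11, FDR = 9.45e-05 in ISF). In SF the call of ATP5PB was lost without Flash, those of ATP5MC1 and NDUFS1 without Flash or Lurie, and COX5A passed in 1 of 8 fits that left out 1 horse. The catalytic F1 subunits ATP5F1A (0.16 ± 0.14) and ATP5F1B (0.30 ± 0.15) did not pass in ISF, nor did the inhibitor ATP5IF1 (0.27 ± 0.23).

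The next comparisons followed each fluid from one time to the next; neighbouring intervals share libraries. From 48 h to 96 h, 2 members rose in ISF (SDHC and NDUFS1, 0.33 ± 0.11, FDR = 0.0251, the latter lost without Dreamer, Lurie or RimRun) against 8.54% of all genes, and 5 rose in SF (SDHC, ATP5MC2, NDUFV3, COX7A2L and NDUFB3) against 11.5%. None fell, where 10.4% of all genes fell in ISF and 15.8% in SF. The SF count was 24 without the SF library of Moon at 6 d, which enters only the estimate of spread here and where 16.3% of all genes rose, 16 without that horse, 3 without Lurie, and 2 without Ollie or without Dreamer. Quantile normalization gave 44 higher in SF, against 16.1% of all genes, library weights 39, against 20.7%, and a fit of the compared groups only 29, against 16.5%, so the members' share of rises in SF lay below the background with all libraries and above it under these settings. In ISF the same settings gave 9, 18 and 15, against 10.2%, 16.4% and 12.5%. With horse as a block the counts were again 2 and 5, against 11.6% and 14.7%. In ISF the count was 7 without the library of Moon, against 12.5%, 8 without Moon, 1 without Lurie, Ollie or RimRun, 0 without Dreamer, and 1 when the 96 h ISF libraries labelled Dealings and Dreamer were dropped. NDUFV3, a flavoprotein-arm accessory subunit, had a log2 difference of 0.62 ± 0.21, FDR = 0.0212, COX7A2L, a factor of supercomplex assembly, 0.40 ± 0.14, FDR = 0.0219, ATP5MC2 0.40 ± 0.13, FDR = 0.016, and NDUFB3 0.50 ± 0.20, FDR = 0.0498. The call of ATP5MC2 was lost without Ollie, that of NDUFV3 without Dreamer or Ollie, that of COX7A2L without Dreamer or Lurie, and NDUFB3 passed in 2 of 8 fits that left out 1 horse.

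From 96 h to 6 d no member passed in either fluid, against 2.83% of all genes higher and 3.54% lower in ISF and 0.432% and 1.61% in SF. At an unadjusted p under 0.05 there were 8 members in each fluid, and limma with voom weights on the recovered reads called 0. In the blocked fit COX7A1 rose in both (1.29 ± 0.32, FDR = 0.00985 in SF, 0.98 ± 0.32, FDR = 0.0354 in ISF), against 1.13% and 4.97% of all genes. In ISF 1 member rose without the horse Moon and 1 without its SF library at 6 d, the latter against 5.33% of all genes. With library weights 5 rose in ISF, against 7.03%. In SF 1 rose without Catnip. From 6 d to 10 d, 3 members rose in ISF, COX7A1, COX7A2L and SDHA, against 5.09% of all genes, and 0 fell against 5.44%. The count was 5 with horse as a block, against 6.95%, 7 without the SF library of Moon, against 7.67%, 6 without that horse, 5 without Catnip, 10 with library weights, against 7.62%, and 8 with quantile normalization, against 5.22%. SDHA rose by 0.47 ± 0.12, FDR = 0.00602, a call lost without Dealings, and COX7A2L by 0.62 ± 0.14, FDR = 0.00113. In SF 0 passed, against 3.19% of all genes higher and 1.59% lower, with 12 at an unadjusted p under 0.05 and 0 by voom. Blocked by horse, COX7A1 rose (1.00 ± 0.33, FDR = 0.0437) and COX6C fell (-0.64 ± 0.22, FDR = 0.0462), against 6.07% and 3.88% of all genes. Without the library of Moon at 6 d COX7A1 rose (1.38 ± 0.39, FDR = 0.0383), against 1.61%.

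ISF was then set against SF at each time. At 48 h no member passed, against 0.872% of all genes higher and 0.81% lower, with 1 member at an unadjusted p under 0.05 and 0 passing by voom. With library weights 8 were higher, against 6.93% of all genes, and in a fit of the compared groups only 3 were, against 1.58%. In ISF 8 members were higher in each of the 7 horses. The median log2 difference (ISF minus SF) was 0.15 against −0.02 over all genes, and 63 of 67 were above 0. The ATP synthase catalytic subunits ATP5F1A and ATP5F1B were the only members whose ranges did not overlap at this time. The share of all genes with ranges apart is not given, so this does not set the members apart from other genes. ATP5F1B ranged from 251 to 301 with a median of 277 GeTMM in SF and from 325 to 399.9 with a median of 344 in ISF. ATP5F1A ranged from 277 to 318 with a median of 304 in SF and from 325 to 400.2 with a median of 372 in ISF. The ISF libraries of both were all higher, yet the differences missed the threshold in the main fit (0.33 ± 0.16, FDR = 0.332 and 0.27 ± 0.14, FDR = 0.408). These SEs rest on a spread pooled over all groups, not on the spread at this time alone. That pool includes the SF library of Moon that stood apart, and the fit does not use the pairing by horse. The missed threshold therefore does not show that the fluids were alike for these genes.

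At 96 h the count was also 0, against 6.16% of all genes higher and 4.3% lower, with 5 members at an unadjusted p under 0.05 and 0 by voom. The median difference was 0.10 against 0.00 over all genes. With library weights 10 were higher and 1 lower, against 15.7% and 13.2%, and in a fit of the compared groups only 5 were higher, against 10.3%. Blocked by horse, 1 member passed, COX8A (0.41 ± 0.14, FDR = 0.0277), against 9.08% of all genes higher. Without the SF library of Moon at 6 d, or without that horse, 2 passed. In the first case COX8A was among them (0.41 ± 0.13, FDR = 0.0181), against 9.64% of all genes higher.

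At 6 d 6 members were higher in ISF and 1 lower, against 16.7% of all genes higher and 13.6% lower, so the members' share lay below the background in both directions. Those higher included NDUFS1 (0.48 ± 0.11, FDR = 0.000364), UQCRC2 (0.48 ± 0.13, FDR = 0.00411), ATP5F1B (0.50 ± 0.15, FDR = 0.00752), ATP5PB (0.29 ± 0.11, FDR = 0.0288) and COX8A (0.41 ± 0.16, FDR = 0.0388). NDUFB9 was lower (-0.52 ± 0.20, FDR = 0.0442). Among these, NDUFS1, UQCRC2 and ATP5F1B passed whichever horse was left out, ATP5PB passed in 4 of 8 such fits, and COX8A and NDUFB9 in 2 of 8. In the SF library of Moon NDUFB9 stood at 702 GeTMM against at most 136 in the other SF libraries. Without that library 23 members were higher and 0 lower, against 17.8% and 18.4% of all genes, the median difference went from −0.02 to 0.25, and 59 rather than 30 of 67 were above 0. NDUFB9 no longer passed there (-0.18 ± 0.13, FDR = 0.277), and the 23 were 7 genes of complex I, 5 of III, 4 of IV and 7 of V. Leaving out whole horses gave 18 members without Moon, 4 without Ollie, 3 without Dreamer and, without Catnip, 3 higher and 5 lower. With horse as a block there were 6 higher and 3 lower (NDUFB9, NDUFA6 and NDUFA4), against 19.3% and 16.8%. Library weights gave 23 higher, against 18.5%, and a fit of the compared groups only 1 higher, against 7.65%.

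NDUFS1 was low rather than high in the SF library of Moon. At 6 d it ranged from 31.7 to 75.3 with a median of 57.2 GeTMM in SF, where Moon was lowest, and from 58.1 to 93.8 with a median of 76.9 in ISF. All 8 horses had more in ISF, and the groups overlapped. Without the library of Moon the difference was 0.37 ± 0.10, FDR = 0.0016. NDUFS1 and ATP5PB were the only members higher in ISF in every horse at this time. UQCRC2 ranged from 47.01 to 113 with a median of 60.6 GeTMM in SF and from 68.2 to 128 with a median of 92.96 in ISF, and was higher in ISF in 7 of 8 horses.

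**Figure D2:**
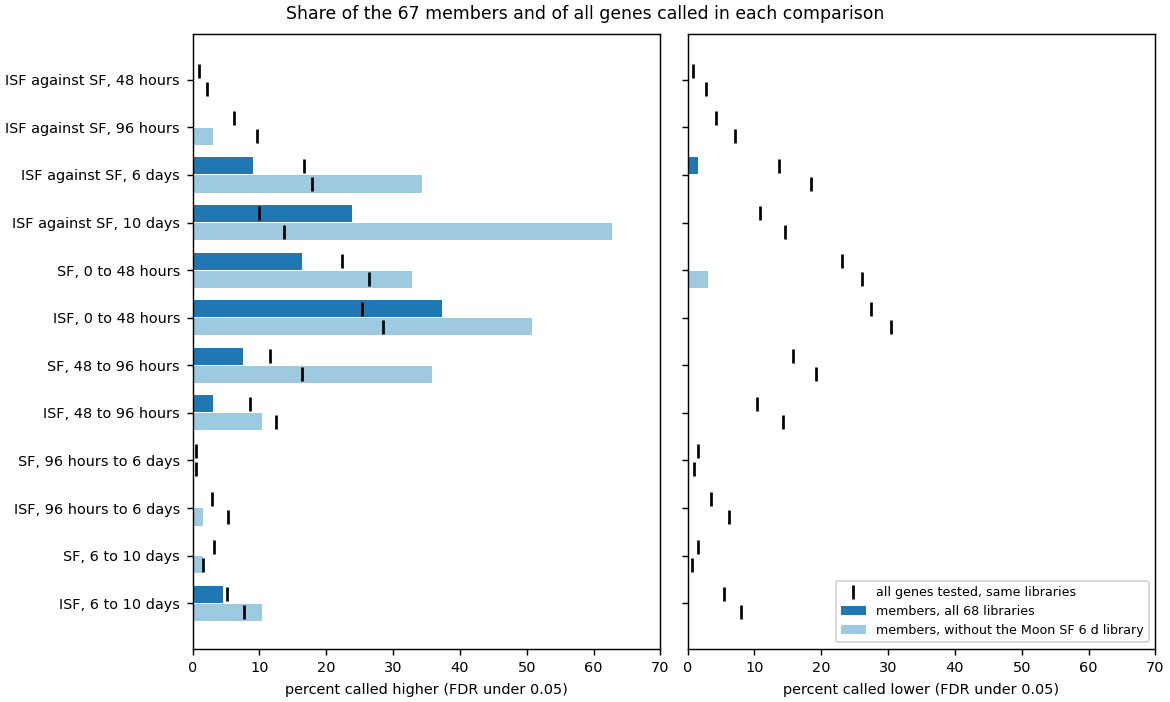
Percent of genes past an FDR of 0.05 (x axis) in each comparison (y axis), higher on the left and lower on the right. Bars are the 67 members, dark with all 68 libraries and light without the SF library of Moon at 6 d, and ticks are all 14570 genes tested. Higher calls among members at 10 d stand above their tick of 9.95%, and at 6 d the dark bar lies below its tick of 16.7%.

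At 10 d 16 members were higher in ISF and 0 lower, against 9.95% of all genes higher and 10.8% lower. The median difference was 0.39 against −0.02 over all genes, 66 of 67 were above 0, and 22 were higher in ISF in each of the 7 horses. With horse as a block 27 were higher, against 12.6% of all genes, and without the SF library of Moon at 6 d, which is not part of this time, 42 were higher, against 13.7%. The count was 41 without the horse Moon but 6 without Lurie, 6 without Ollie and 4 without Dealings. It was 39 with library weights, against 12.9%, and 9 with no filter on low values, against 5.9%. Averaged over the members, the difference was 0.42 ± 0.37 log2 units (SD, 7 horses), from 0.02 in Dreamer to 1.14 in Dealings. NDUFS1, SDHB and UQCRC2 were among those that passed whichever horse was left out. By complex, the median differences were 0.34 in I, 0.34 in II, 0.46 in III, 0.59 in IV and 0.42 in V. The genes that passed were 3 of 30, 2 of 3, 2 of 7, 4 of 13 and 5 of 14.

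In complex I, NDUFS1 ranged from 52.3 to 76.8 with a median of 68.01 GeTMM in SF and from 62.8 to 117 with a median of 96.8 in ISF, for a log2 difference of 0.52 ± 0.11, FDR = 0.000457. The groups overlapped, but every horse was higher in ISF, as at 6 d. NDUFB4, an accessory subunit, was higher as well (0.54 ± 0.20, FDR = 0.0441) and passed in 3 of 8 fits that left out 1 horse. Several core subunits did not pass with all libraries: NDUFS3 had 0.18 ± 0.22, NDUFS7 0.26 ± 0.22, NDUFS8 0.34 ± 0.21, NDUFV1 0.15 ± 0.22 and NDUFV2 0.22 ± 0.17.

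In complex II, SDHB ranged from 105 to 159.7 with a median of 141 GeTMM in SF and from 132 to 265 with a median of 209.9 in ISF, all 7 horses higher, with some overlap (0.54 ± 0.15, FDR = 0.0044). SDHA ranged from 86.8 to 146 with a median of 114 in SF and from 85.02 to 193 with a median of 153 in ISF (0.34 ± 0.13, FDR = 0.0483). Its ranges overlapped widely, 5 of 7 horses were higher, and the call was lost on leaving out Dealings, Dreamer, Flash, Lurie or Ollie. SDHC, which rose on entry into both fluids, had a difference of 0.17 ± 0.10, FDR = 0.24 and did not pass.

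Of complex III, the core protein UQCRC2 ranged from 56.4 to 94.6 with a median of 76.8 GeTMM in SF and from 69.00 to 155 with a median of 119 in ISF (0.56 ± 0.14, FDR = 0.00307). All 7 horses were higher in ISF, though the groups overlapped. The small subunit UQCRQ was the other gene to pass (0.63 ± 0.22, FDR = 0.0344), except without Dealings, Lurie or Ollie. CYC1 (0.44 ± 0.20), UQCRFS1 (0.29 ± 0.17) and UQCRC1 (0.32 ± 0.17) did not.

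Complex IV had the largest median difference, with COX5A, COX6A1, COX6B1 and COX7B higher in ISF. COX5A ranged from 203 to 420.1 with a median of 345 GeTMM in SF and from 312 to 709 with a median of 505 in ISF (0.66 ± 0.23, FDR = 0.0277). COX6A1 ranged from 147 to 291 with a median of 254 in SF and from 231 to 467 with a median of 368 in ISF (0.63 ± 0.20, FDR = 0.0168). COX7B ranged from 256 to 507 with a median of 429 in SF and from 337 to 969 with a median of 714 in ISF (0.75 ± 0.27, FDR = 0.0403). The fluids overlapped in each of these, and the first pair were higher in all 7 horses and COX7B in 6. COX6B1, on the side of the intermembrane space, had 0.59 ± 0.22, FDR = 0.0419. COX4I1 (0.41 ± 0.17), COX5B (0.39 ± 0.22), COX6C (0.47 ± 0.23) and COX8A (0.42 ± 0.17) did not pass with all libraries. All the calls in this complex were lost without Dealings, without Lurie and without Ollie.

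Complex V contributed both catalytic subunits. ATP5F1B ranged from 311 to 490.3 with a median of 426 GeTMM in SF and from 310.0 to 835 with a median of 607 in ISF (0.56 ± 0.16, FDR = 0.00759). ATP5F1A ranged from 278 to 533 with a median of 441 in SF and from 336 to 679 with a median of 588 in ISF (0.40 ± 0.14, FDR = 0.0405). For both, 6 of 7 horses were higher in ISF, Catnip being the exception, and the groups overlapped. Both calls were lost without Dealings or without Lurie, and that of ATP5F1A also without Dreamer or Ollie. ATP5PB (0.44 ± 0.11, FDR = 0.00283), the c-subunit gene ATP5MC3 (0.58 ± 0.19, FDR = 0.0237) and the small membrane subunit ATP5MK also passed. ATP5MK ranged from 214 to 453 with a median of 385 in SF and from 316 to 1010.2 with a median of 600.3 in ISF (0.76 ± 0.27, FDR = 0.0394), the largest log2 difference among the 16. It passed in 2 of 8 fits that left out 1 horse, ATP5MC3 in 5 and ATP5PB in 7, all but the fit without Dealings. The inhibitor ATP5IF1 had 0.47 ± 0.23 and did not pass with all libraries.

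**Figure D3:**
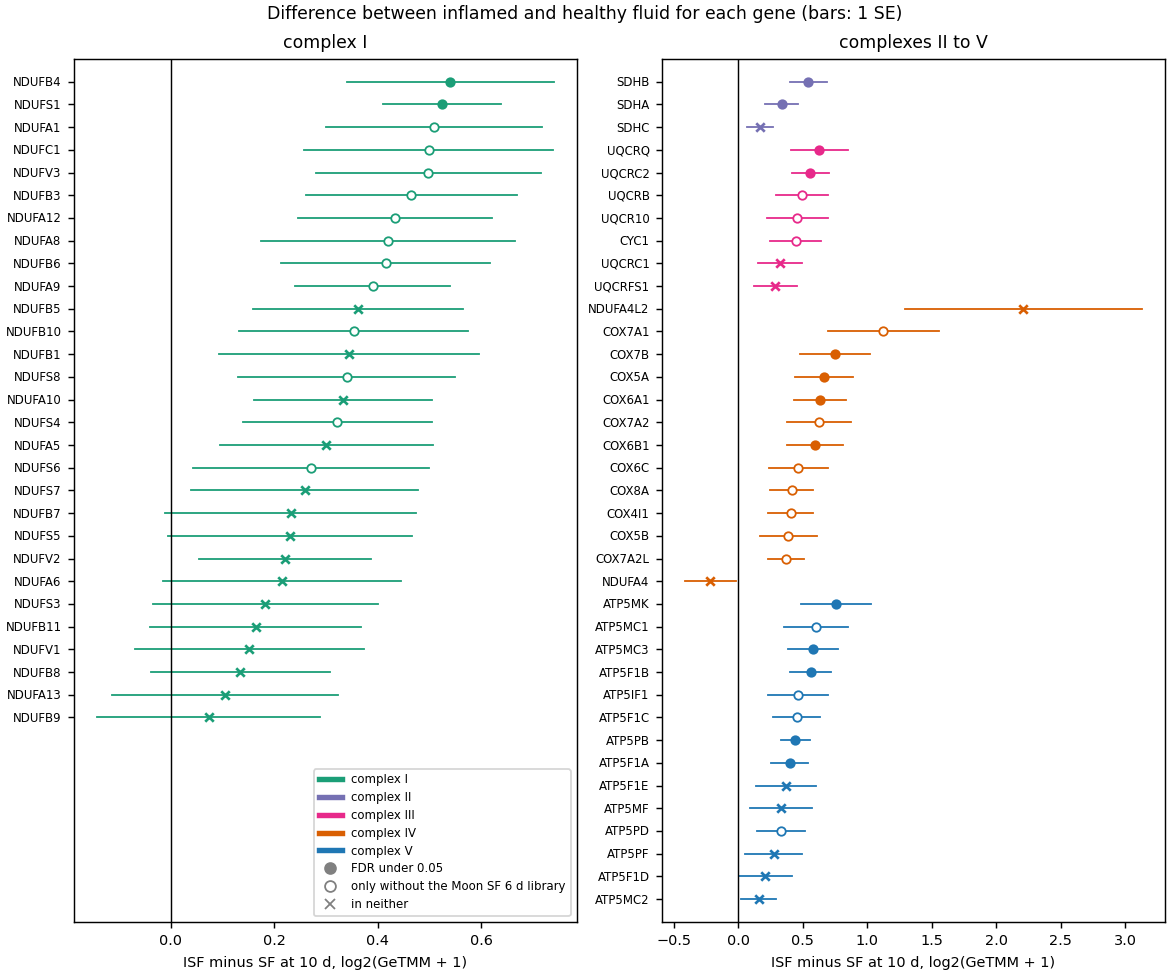
Log2 difference at 10 d (x axis, ISF minus SF, bars 1 SE) of 66 members (y axis), with complex I on the left and the others on the right, colored by complex. Filled points passed an FDR of 0.05 with all 68 libraries, open points passed only without the SF library of Moon at 6 d, and crosses passed in neither fit. NDUFA4 is the only member below 0, and NDUFS1 is filled at 0.52.

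Whether the difference between fluids changed with time was tested directly. From 48 h to 6 d no member passed, against 3.53% of all genes higher and 1.85% lower, with 2 at an unadjusted p under 0.05 and 0 by voom. Without the SF library of Moon, or without that horse, 1 passed, in the first case against 3.91%. From 6 d to 10 d 0 passed, against 0.0824% higher and 0.144% lower, with 14 at an unadjusted p under 0.05 and 0 by voom. The larger number of calls at 10 d than at 6 d is therefore not shown to be a change in the difference. These contrasts share the 6 d libraries with each other, among them the SF library of Moon. Without that library the median difference of the members at 6 d was 0.25 rather than −0.02. From 6 d to 10 d the count stayed at 0 whichever horse was left out. Counts at an unadjusted p, here and above, have no share of all genes beside them.

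Several subunits exist as pairs with tissue-specific partners. COX7A1 is the heart and muscle partner of COX7A2. It was low at 0 h, from 2.17 to 9.14 with a median of 4.88 GeTMM. In SF it reached 9.02 to 20.9 at 48 h and 22.6 to 174 with a median of 77.6 at 10 d. In ISF it stood at 20.01 to 92.99 with a median of 37.6 at 6 d and 58.5 to 358 with a median of 157 at 10 d. Every 10 d library of either fluid was above every uncultured one, and the 10 d fluids overlapped. COX7A1 rose from 0 h to 48 h in SF (1.21 ± 0.42, FDR = 0.0132), where the ranges just overlapped, and from 6 d to 10 d in ISF (2.02 ± 0.42, FDR = 0.000488). At 10 d it was higher in ISF in all 7 horses but missed the threshold (1.13 ± 0.43, FDR = 0.0517). It passed with horse as a block (1.13 ± 0.34, FDR = 0.0101) and without the SF library of Moon (1.13 ± 0.39, FDR = 0.0234). COX7A2, expressed in all tissues, ranged from 187 to 464 with a median of 247 GeTMM at 0 h and from 259 to 672 with a median of 462 in ISF at 10 d, so the median of COX7A1 in ISF at 10 d remained below that of COX7A2. Their difference between fluids at 10 d was 0.63 ± 0.25 for COX7A2, which did not pass either. COX6A2, a muscle form, COX6B2, a testis form, and COX4I2, a lung form, were among the rows left out by the filter on low values, while their partners COX6A1, COX6B1 and COX4I1 were read in every library.

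NDUFA4L2, a paralog of the complex IV subunit NDUFA4 known from hypoxic cells, had 0 reads in all 8 uncultured libraries, where 3 reads would have been 0.474 to 0.900 GeTMM. It was listed above 0 in 1, 2, 5 and 4 SF libraries at the 4 times and in 5, 6, 8 and 7 ISF libraries. Some of these held 1 or 2 reads, under the 3 reads taken as a floor. Among them were Dreamer (1 read), Lurie (2) and Ollie (1) in ISF at 48 h. Above 10 GeTMM were 1 SF library at 6 d (Lurie, 55.5), 1 SF library at 10 d (Lurie, 238), 2 ISF libraries at 6 d (Catnip 107, Flash 290) and 4 ISF libraries at 10 d (Catnip 307, RimRun 76.4, Ollie 28.1 and Dreamer 14.8). The gene was thus high in a few horses and in different ones in each fluid. At 10 d it ranged from 0 to 238 with a median of 0.552 GeTMM in SF and from 1.63 to 307 with a median of 14.8 in ISF, was higher in ISF in 6 of 7 horses, and did not pass (2.21 ± 0.92, FDR = 0.0778). Fibroblast and stromal markers (COL1A1, COL1A2, COL3A1, LUM and DCN) summed to 4038 GeTMM in the SF library of Lurie at 10 d and to 0.3 in the ISF library of Catnip, and their part in these values was not tested. NDUFA4 itself ranged from 457 to 664 with a median of 619 GeTMM in SF and from 304 to 702 with a median of 550.5 in ISF. It was higher in ISF in 2 of 7 horses, and its difference of -0.22 ± 0.20, FDR = 0.488 was the only one of the 67 below 0, though it did not pass.

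**Figure D4:**
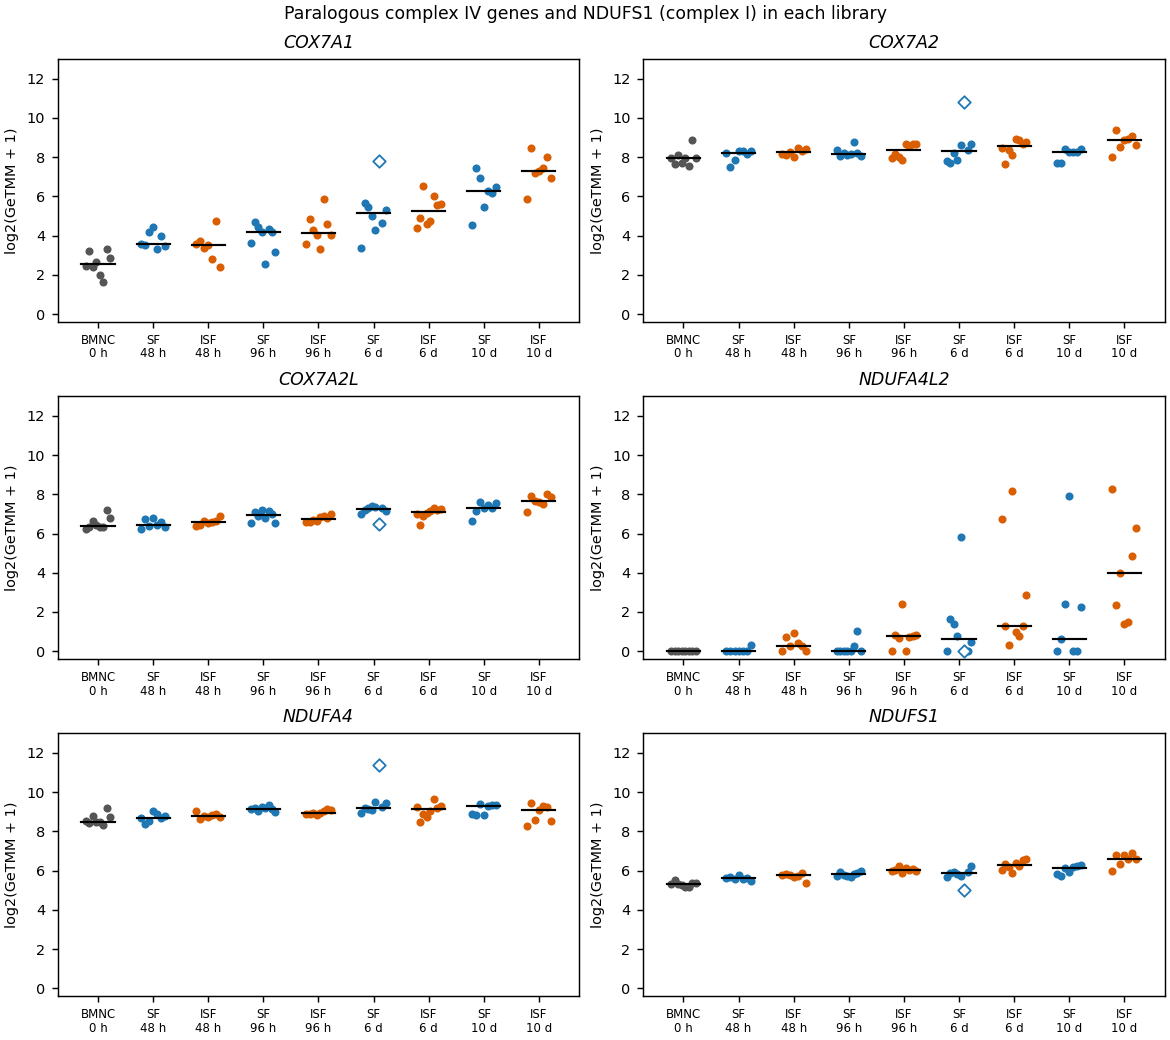
Log2(GeTMM + 1) of COX7A1, COX7A2, COX7A2L, NDUFA4L2, NDUFA4 and NDUFS1 (y axis) in every library by time in culture (x axis), with uncultured BMNC in grey, SF in blue and ISF in orange, black bars for group medians and an open diamond for the SF library of Moon at 6 d. COX7A1 climbs from a median of 4.88 GeTMM at 0 h to 157 in ISF at 10 d, and NDUFA4L2 is at 0 in all uncultured libraries and scattered at 10 d.

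The 13 chain subunits encoded by mitochondrial DNA were read beside the nuclear ones, with their row names matched after the files were seen. From 0 h to 48 h, 0 rose and 4 fell in SF (median log2 difference −0.54), and 0 rose and 1 fell in ISF (−0.26). Over all genes tested, 22.3% rose and 23.1% fell in SF, and 25.3% rose and 27.4% fell in ISF. At 6 d 7 of 13 were higher in ISF and 0 lower (median 0.72), and at 10 d 5 were higher and 0 lower (0.69). Over all genes tested, 16.7% were higher and 13.6% lower at 6 d, and 9.95% and 10.8% at 10 d. Without the SF library of Moon the counts were 5 and 8, beside 17.8% and 13.7% of all genes higher. In that library MT-CO1, the catalytic subunit of complex IV, was lowest of its group at 3127 GeTMM while MT-CO2, which carries the copper center that receives electrons, was highest at 8005. MT-CO1 ranged from 4512 to 10266 with a median of 9565 GeTMM in SF and from 8462 to 21896 with a median of 15752 in ISF at 10 d (0.90 ± 0.20, FDR = 0.000581). MT-CO2 ranged from 1729 to 4760.1 with a median of 3838 in SF and from 5379.8 to 10212 with a median of 7338 in ISF (1.09 ± 0.22, FDR = 0.000123). The ISF libraries of MT-CO2 all lay above the SF libraries, and those of MT-CO1 overlapped them. Uncultured cells were spread widely, with MT-CO1 from 6748 to 23458 with a median of 8384, the highest being Ollie. MT-ND4L was barely read, with group means of 0.28 to 1.06 GeTMM. Between the lowest and highest horse, medians differed 3.86-fold for MT-CO3, 3.61-fold for MT-ND5 and 2.95-fold for MT-ATP6. Genes that did not pass are therefore not shown to be unchanged.

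**Figure D5:**
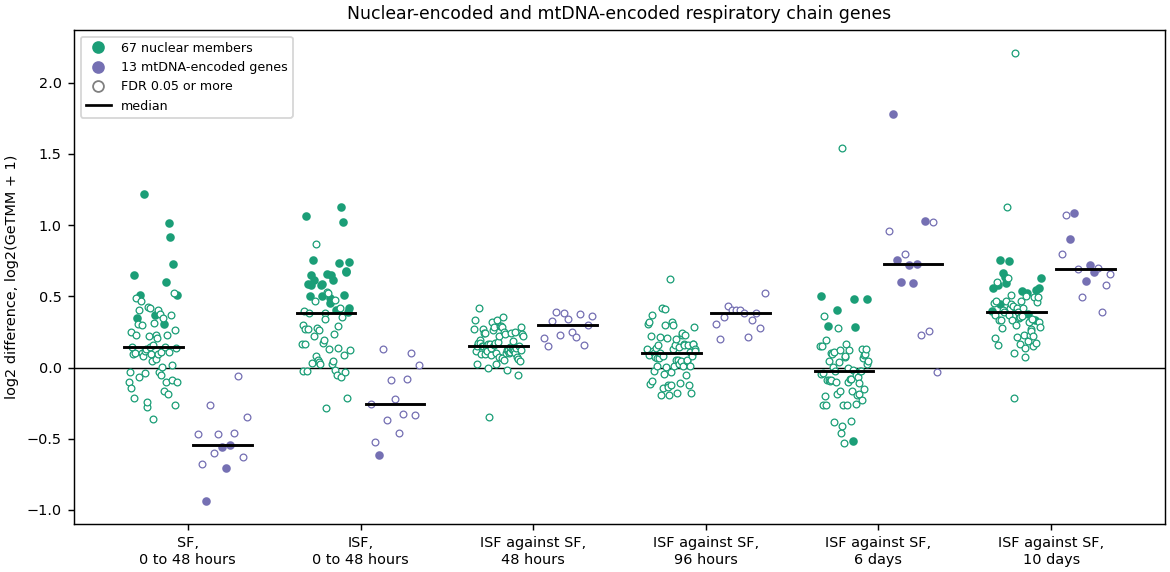
Log2 differences (y axis) of the 67 nuclear-encoded members and the 13 genes of mitochondrial DNA in 6 comparisons (x axis), with filled points past an FDR of 0.05 and a bar at each median. From 0 h to 48 h in SF the nuclear median is 0.14 and the mitochondrial one −0.54, while for ISF against SF at 10 d they are 0.39 and 0.69.

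Other parts of the organelle were read from lists made by function. The shares of all genes tested to set beside them are as follows. From 0 h to 48 h they are 25.3% higher and 27.4% lower in ISF, and 22.3% and 23.1% in SF. For ISF against SF they are 16.7% and 13.6% at 6 d, and 9.95% and 10.8% at 10 d. Without the SF library of Moon they are 17.8% and 18.4% at 6 d, and 13.7% higher at 10 d. Of 50 assembly factors tested, which build the complexes but are not part of them, 23 rose and 3 fell from 0 h to 48 h in ISF, and 14 rose and 3 fell in SF. At 10 d 6 were higher in ISF and 0 lower. Of 70 mitochondrial ribosomal proteins, 50 rose and 1 fell from 0 h to 48 h in ISF (median 0.54), and 32 rose and 1 fell in SF (0.34). At 6 d 6 were higher in ISF and 1 lower, or 22 and 1 without the SF library of Moon, and at 10 d 6 and 1, or 13 and 1. Of the 69 cytosolic ribosomal proteins, which build the cytoplasmic translation machinery, 3 rose and 36 fell on entry into ISF, 2 rose and 33 fell in SF, and at 6 d 0 were higher and 61 lower in ISF (1 and 53 without that library). At 10 d 0 passed.

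Of 14 tricarboxylic acid cycle enzymes other than succinate dehydrogenase, 8 were higher in ISF and 0 lower at 6 d, and 4 and 0 at 10 d: IDH3A (0.56 ± 0.17, FDR = 0.0114), DLD (0.46 ± 0.12, FDR = 0.00442), SUCLA2 (0.40 ± 0.13, FDR = 0.0209) and MDH2 (0.57 ± 0.19, FDR = 0.0223). The porins of the outer membrane were higher at 10 d, VDAC1 by 0.75 ± 0.11, FDR = 4.32e-07, VDAC2 by 0.71 ± 0.11, FDR = 3.48e-06 and VDAC3 by 0.98 ± 0.14, FDR = 4.79e-07, as were the ADP/ATP carriers SLC25A4 (0.93 ± 0.35, FDR = 0.0485) and SLC25A5 (0.47 ± 0.17, FDR = 0.0366). With them 5 of 7 tested carriers, porins and uncoupling proteins were higher and 0 lower. Of 16 genes of electron carriers and ubiquinone synthesis, 4 were higher at 10 d, among them cytochrome c (CYCS, 1.07 ± 0.27, FDR = 0.00295), and COQ8A was lower (-0.79 ± 0.15, FDR = 7.39e-05). Of 15 genes for maintenance and transcription of mitochondrial DNA, 2 were higher and 1 lower. Among 8 regulators of mitochondrial biogenesis, 2 were higher in ISF and 0 lower at 6 d, and 1 and 0 at 10 d. The coactivator PPARGC1A passed at 6 d (1.42 ± 0.26, FDR = 2.51e-05) and 10 d (1.37 ± 0.28, FDR = 0.000211), and its relative PPRC1 at 6 d (0.41 ± 0.13, FDR = 0.0135) but not at 10 d (0.00 ± 0.14). The 6 d values for these regulators and for the tricarboxylic acid cycle enzymes include the SF library of Moon. Within ISF the regulators moved both ways. From 0 h to 48 h PPRC1 rose (1.02 ± 0.14, FDR = 2.67e-09) and NRF1 fell (-0.33 ± 0.09, FDR = 0.00277). From 6 d to 10 d PPARGC1A rose (1.26 ± 0.27, FDR = 0.000922) and NRF1 fell (-0.44 ± 0.09, FDR = 0.000933).

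Cell-type markers moved over the same comparisons. At 10 d the 5 T-cell markers summed to 23.5 to 199 GeTMM in SF and 4.33 to 14.8 in ISF, the 5 B and plasma cell markers to 135 to 1156 and 55.5 to 175, and the 6 neutrophil-precursor markers to 2.15 to 1648 and 0.759 to 63.7. The 7 macrophage markers summed to 29897 to 75174 in SF and 47200 to 82485 in ISF, none of them at 0. The ISF cultures at 10 d thus held less lymphoid marker RNA. The part of these shifts in the differences of the subunits was not tested.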

How the data were processed

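RNA-seq was made on 68 libraries of BMNC from 8 horses, 1 per horse, fluid and time. According to the study's methods and notes, the authors trimmed adapters and aligned to EquCab3.0 with STAR 2.7.2a, counted reads per Ensembl gene and deposited GeTMM values made with edgeR, which are reads per kilobase scaled by trimmed mean of M-values, an RPKM-like unit. Every deposited RPKM-like value was a whole number of reads within 0.02 read for 24065 of 24065 genes above 0, which gave depth (given with the report) and gene lengths. The smallest whole numbers that fitted were taken, so a gene above 0 in only 1 library passed by construction. A gene above 0 in a few libraries had many multiples to fit, so its pass says little. Deposited columns were matched to samples by title.

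Genes at 0.5 GeTMM or more in at least 7 libraries (14570) were tested with limma 3.58.1 in R 4.3.3 on log2(GeTMM + 1), since GeTMM is not a count: 1 linear fit over 68 libraries and 9 groups, moderated with a trend, and Benjamini-Hochberg FDR under 0.05 over all genes. Differences are on that scale and understate changes of low genes. The comparisons were ISF against SF at each time, consecutive times within a fluid, and the change of the ISF-SF difference. Each was repeated under 19 other settings, among them a fit with horse as a block. Since both fluids held cells of the same animals, horse numbers pair the samples. Same-horse deviations correlated between fluids at 0.074 to 0.563, except at 96 h for Dealings (−0.015) and Dreamer (−0.217). Scripts were tested on simulated data. Wells were not replicated, so p-values rest on the spread between libraries of different horses, which also holds that of wells and libraries. In the main fit this spread is pooled over the 9 groups and does not use the pairing by horse.

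Members and lists were chosen with earlier results of these data known. Genes named were fixed core, catalytic and isoform subunits, the 2 highest and 2 lowest log2 differences past the threshold in each comparison, every member passing a change of difference, and the highest and lowest level of each complex. Other genes were named after their values were seen, and 1 member is not reported here by name.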

Additional observations from a re-analysis of the deposited data

Results flagged for a closer look

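Groups of 4 to 10 libraries were searched for a highest or lowest value set far apart from the rest by Dixon's criterion, for the means of the complexes and for the genes whose library values are given. Of 243 groups, 39 held such a value, and chance alone would mark about 5% of groups. The SF library of Moon at 6 d accounted for 18 of them. No cause was tested for any of these values.

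In that library the mean log2 level was 8.72 for complex I (median of the others 6.45), 9.02 for complex III (7.09), 9.70 for complex IV (7.78) and 10.15 for complex V (8.13). On the log2(GeTMM + 1) scale it was also far above the others for NDUFS8 at 10.46, NDUFV2 at 8.99, NDUFA4 at 11.38, NDUFB9 at 9.46, SDHB at 8.35, UQCRFS1 at 8.12, COX7A2 at 10.80, COX8A at 10.71, COX5A at 11.08, COX7B at 11.52, ATP5IF1 at 9.40 and ATP5MK at 11.58. It was far below them for NDUFS1 at 5.03 (others 5.88) and COX7A2L at 6.48 (7.27). In SF at 96 h Moon was set apart as well, with 8.38 for complex V, 8.76 for COX7A2 and 8.06 for ATP5PB, as it was at 0 h for SDHC at 7.10.

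In ISF at 48 h the library of RimRun was apart for complex III at 7.46, NDUFS1 at 5.39, NDUFB9 at 7.41, UQCRFS1 at 7.13 and ATP5MC1 at 6.88, and that of Ollie for complex IV at 7.599 and ATP5F1B at 8.65. Ollie was also apart at 0 h for COX7A2 at 8.86 and COX7B at 9.34, and in ISF at 96 h for ATP5IF1 at 7.00. Dealings was low for ATP5MK in SF at 48 h, at 7.20, and for COX7A2L in ISF at 6 d, at 6.45.

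NDUFA4L2 had 1 library apart in 5 groups: RimRun in SF at 48 h (0.33), which held 2 reads, under the 3 reads taken as a floor, where the others held 0, Ollie in SF at 96 h (1.03), Lurie in SF at 6 d (5.82) and 10 d (7.90), and Flash in ISF at 96 h (2.41). The others had medians of 0 to 0.74.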

How the results depend on the processing

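The members passing the threshold were counted again under 19 other settings. A pseudocount of 0.1, voom on recovered reads, and, chosen after seeing the data, leaving out the 0 h library of Ollie kept each count within 1.5 times of the first. Leaving out each horse gave 0 to 0 members at 48 h, 0 to 2 at 96 h, 3 to 18 at 6 d and 4 to 41 at 10 d for ISF against SF, then in ISF 20 to 30, 0 to 8, 0 to 1 and 2 to 6 over the 4 successive intervals, and in SF 5 to 19, 2 to 16, 0 to 1 and 0 to 0. For the change of the difference it gave 0 to 1 from 48 h to 6 d and 0 to 0 from 6 d to 10 d. With library weights, where the SF library of Moon at 6 d had a weight of 0.030, the counts were 8, 11, 23 and 39 at the 4 times, 39, 18, 5 and 10 over the ISF intervals, 28 and 39 over the first intervals in SF, 2 from 6 d to 10 d in SF, and 1 for the change from 48 h to 6 d. Without that library they were 2 at 96 h, 23 at 6 d, 42 at 10 d, 7, 1 and 7 over the later ISF intervals, 24 and 24 over the first SF intervals, 1 from 6 d to 10 d in SF and 1 for the change from 48 h to 6 d. Fits of the compared groups only gave 3 at 48 h, 5 at 96 h, 1 at 6 d, 40 and 15 over the first ISF intervals and 23 and 29 over the first SF intervals. With quantile normalization they were 3 at 96 h, 9 from 48 h to 96 h and 8 from 6 d to 10 d in ISF, 20, 44 and 1 in SF from 0 h, 48 h and 6 d, and 1 for the change from 48 h to 6 d. With no filter 9 passed at 10 d. Dropping the 96 h ISF libraries labelled Dealings and Dreamer, 1 passed from 48 h to 96 h in ISF.

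With horse as a block, which the shared animals call for, the counts were 1 at 96 h, 27 at 10 d, 1 from 96 h to 6 d and 5 from 6 d to 10 d in ISF, and 20, 1 and 2 in SF from 0 h, 96 h and 6 d. It changed no other count by over 1.5 times. The block without the SF library of Moon at 6 d, chosen after seeing the data, gave 3, 7, 26 and 47 at the 4 times, 15, 6 and 10 over the later ISF intervals, 28, 32, 1 and 1 over the SF intervals, and 1 for each change of the difference. Single genes were followed over the other settings only where they had the highest or lowest log2 differences past the threshold in a comparison. Other named genes were not part of this tally. Because the genes were picked for large differences and refitted on largely the same libraries, a lack of sign changes says little about robustness. Of the 285 values for these picked genes, 240 stayed on their side of the threshold, 45 no longer passed, and 0 changed sign. The cause of these shifts was not tested. Among the members, depth limits only NDUFA4L2 and, at 0 h, COX7A1. The horses are few, and 1 library or horse decides several counts.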
